A study of Homo sapiens with 12 samples.

Results

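The genes described here are 10 transcripts by which neuroblastoma and young neurons are commonly recognised: ELAVL2, ELAVL3, ELAVL4, UCHL1, NEFL, NEFM, INA, PRPH, NCAM1 and L1CAM. They were taken by gene name from 60660 gene identifiers measured in TPM, an abundance that is corrected for gene length and scaled to one total per library. All 10 were among the 16842 genes that reached 1 TPM in at least 2 libraries and were tested. The RNA came from Kelly, an established human neuroblastoma line with an amplified MYCN gene and an adrenergic, nerve-like character. The 3 derivatives carried a doxycycline-inducible short hairpin RNA (shRNA) against RCOR2 (shRCOR2), against RCOR1 (shRCOR1) or with no target (shCTRL). RCOR1 and RCOR2 encode related scaffold proteins that hold a histone demethylase, KDM1A, together with histone deacetylases.

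Each line gave 2 induced libraries, treated with 2 µg/mL doxycycline, and 2 untreated libraries, which makes 6 groups and 12 libraries. The groups are shRCOR2 induced and shRCOR2 untreated, shRCOR1 induced and shRCOR1 untreated, and shCTRL induced and shCTRL untreated. All of them share the Kelly background and a hairpin cassette. The sample labels put the samples at 72 h, while the treatment protocol speaks of 24 or 48 h of doxycycline. The labels name 1 hairpin line per target, so a hairpin's other effects and the loss of its target cannot be told apart. Nothing in the labels says that the 2 libraries of a group are separate cultures, so p-values measure the spread between these libraries, which may be technical.

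On GRCh38 as the deposited files give it, ELAVL2 (ENSG00000107105.15) lies on the minus strand of chr9:23690104-23826337, ELAVL3 (ENSG00000196361.10) on the minus strand of chr19:11451326-11481046 and ELAVL4 (ENSG00000162374.18) on the plus strand of chr1:50024029-50203772. UCHL1 (ENSG00000154277.13) lies on the plus strand of chr4:41256413-41268455. NEFL (ENSG00000277586.4) and NEFM (ENSG00000104722.14) are neighbours on chromosome 8, at 24950955-24956721 on the minus strand and 24913758-24919098 on the plus strand. INA (ENSG00000148798.11) lies on the plus strand of chr10:103277138-103290346 and PRPH (ENSG00000135406.14) on the plus strand of chr12:49293252-49298686. NCAM1 (ENSG00000149294.17) lies on the plus strand of chr11:112961247-113278436 and L1CAM (ENSG00000198910.14) on the minus strand of chrX:153861514-153886173. Each symbol stood at 1 identifier, annotated as protein coding.

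The neuronal ELAVL proteins (ELAVL2, ELAVL3 and ELAVL4, also called HuB, HuC and HuD) bind AU-rich and U-rich stretches of messenger RNA and act on its stability, splicing and translation. UCHL1 (PGP9.5) is an abundant neuronal ubiquitin hydrolase. NEFL and NEFM are the light and medium neurofilament subunits, and INA (alpha-internexin) and PRPH (peripherin) co-assemble with them, PRPH mainly in peripheral neurons. NCAM1 and L1CAM are immunoglobulin-family adhesion molecules of the nerve cell surface. Several of these products are used in pathology to recognise neuroblastoma.

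Promoter stretches are shown for the members whose levels moved most in the shRCOR2 line and for INA, since RCoR proteins act at promoters and with the repressor REST, whose RE1 element controls many neuronal genes. RefSeq promoters (GRCh38.p14) were matched for 6 of the 10 members, in 18 windows of 250 bases before an annotated start. ELAVL2 has 6 of these windows, ELAVL4 7 and L1CAM 2. Some windows of ELAVL2 and of L1CAM overlap each other, so they are not 18 separate promoters. The UCHL1, PRPH and L1CAM windows lie within the gene spans given above and overlap an annotated exon of the gene. That of INA lies before its gene. Capitals mark a TATA box (TATAAA) or a GC box (GGGCGG) on either strand.
UCHL1, chr4:41256887-41256916, plus strand: tctggccggcgcTTTATAgctgcagcctgg
PRPH, chr12:49295104-49295133, plus strand: agaccgcagggcTATAAAgccgcctcgcag
L1CAM, chrX:153876038-153876067, minus strand: agctggGGGCGGggctgaGGGCGGggccaa
INA, chr10:103276888-103277137, plus strand: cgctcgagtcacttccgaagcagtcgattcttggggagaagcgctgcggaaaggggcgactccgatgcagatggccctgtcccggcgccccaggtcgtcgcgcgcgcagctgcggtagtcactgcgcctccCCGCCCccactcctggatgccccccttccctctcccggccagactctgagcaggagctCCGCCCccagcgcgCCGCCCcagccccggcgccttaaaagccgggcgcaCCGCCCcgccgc

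The RE1 parts TTCAGCACC and GGACAGCGC, searched on both strands, were in 0 of the 18 windows, against 0.288% and 0.427% of all 35116 windows of that length. The E-box CACGTG, a sequence that MYC-family proteins can bind, was also in 0 of the 18, against 6.34% of all windows. TATAAA was in 3 windows, 1 each of ELAVL2, UCHL1 and PRPH, against 10.7% of all windows. GGGCGG was in 8 windows of 4 members, against 42.6% of all windows. In the stretches shown no match overlaps another. These matches describe letters only, and they bear on no factor's binding.

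The targeted genes were read first. RCOR2 stood at 17.7 and 20.5 TPM in shRCOR2 induced libraries, against 55.4 and 49.9 TPM in shRCOR2 untreated libraries. RCOR1 stood at 4.80 and 5.07 TPM in shRCOR1 induced libraries, against 8.32 and 9.08 TPM in shRCOR1 untreated libraries. RCOR2 was lower in the induced shRCOR1 line too, at 26.0 and 26.3 TPM, against 51.4 and 50.5 TPM untreated (log2 change −0.94 ± 0.11 SE, limma adjusted p = 0.0028). In the shRCOR2 line RCOR1 was 9.29 and 9.92 TPM induced, against 9.81 and 9.32 TPM untreated. In the shCTRL line RCOR2 was 49.7 and 42.7 TPM induced, against 54.6 and 50.2 TPM untreated, which do not overlap either. Relative to the shCTRL change, RCOR2 was called in shRCOR2 (−1.24 ± 0.16 log2 ± SE, limma adjusted p = 0.013). In shRCOR1 neither RCOR1 (−0.60 ± 0.17, limma adjusted p = 0.16, and 0.045 with the replicate block) nor RCOR2 (−0.75 ± 0.16, limma adjusted p = 0.069, and 0.016 with the replicate block) passed relative to shCTRL without the block.

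Adrenergic neuroblastoma markers (10, among them HAND2, GATA3 and DBH) all averaged at least 1 TPM, and their summed level was 2726 to 4043 TPM over the 12 libraries. Their sum was 2726 and 3230 TPM in shRCOR2 induced against 3603 and 3816 TPM untreated, 3534 and 3122 TPM in shRCOR1 induced against 3859 and 4043 TPM untreated, and 3443 and 3436 TPM in shCTRL induced against 3696 and 3781 TPM untreated. The sum was thus lower in the induced libraries of every line. Single markers differed from it: 1 rose and 1 fell in shRCOR2, where GATA3 was the one that rose (0.46 ± 0.11 log2 ± SE, limma adjusted p = 0.031), and 0 rose and 4 fell in shRCOR1. The part of these markers in the results on the 10 genes was not tested. Sums for the lists of other cell types were 134 to 244 TPM (mesenchymal neuroblastoma), 1.94 to 10.1 TPM (Schwann), 32.9 to 152 TPM (fibroblast), 0.917 to 6.68 TPM (endothelial), 0.113 to 0.693 TPM (leukocyte) and 0.143 to 4.13 TPM (epithelial). Some of these sums moved with the groups. The endothelial sum was 3.98 and 6.68 TPM in shRCOR2 induced against 1.17 and 1.46 TPM in shRCOR2 untreated, and the epithelial sum was 3.18 and 4.13 TPM in shRCOR1 induced against 0.286 and 0.309 TPM in shRCOR1 untreated, each with 1 marker called higher. The endothelial marker called in shRCOR2 was KDR (1.82 ± 0.23 log2 ± SE, limma adjusted p = 0.0025). PECAM1 and CDH5 (endothelial) and COL1A2 and DCN (fibroblast) did not reach 1 TPM in at least 2 libraries and were not tested. The endothelial and fibroblast sums therefore rest on the remaining markers of their lists. CDH1 and KRT5 (epithelial) and CD3E (T cells) were listed at 0 in every library. The median change of the 7 mesenchymal markers was 0.92 in shRCOR1, with 1 called higher and 1 lower. That median is the change of YAP1 (0.92 ± 0.53 log2 ± SE, limma adjusted p = 0.35). The mesenchymal sum overlapped there, at 139 and 169 TPM in shRCOR1 induced against 158 and 153 TPM in shRCOR1 untreated. The part of these markers in the results was not tested either. In bulk RNA, fewer cells expressing a gene and less RNA of it per cell cannot be told apart. Relative depth spread from 1 to 2.14 between libraries, 14758 to 16026 genes reached 1 TPM, mitochondrial transcripts took 13.3% to 21.4% of TPM, and replicates correlated at 0.967 to 0.990 across genes.

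In untreated cells UCHL1 was the most abundant of the 10, with a lowest, median and highest of 800, 996 and 1253 TPM over the 6 untreated libraries. PRPH followed at 331, 376 and 396 TPM. INA had 112, 150 and 164 TPM, NCAM1 101, 123 and 133 TPM, ELAVL3 79.6, 84.2 and 90.3 TPM, and L1CAM 73.6, 80.1 and 83.6 TPM. The lowest were NEFM (61.4, 74.8 and 93.7 TPM), NEFL (39.8, 44.6 and 47.5 TPM), ELAVL4 (25.8, 37.2 and 49.5 TPM) and ELAVL2 (24.9, 30.5 and 35.8 TPM). Among the filament subunits the untreated cells thus held far more PRPH than NEFL or NEFM RNA, with INA in between, and among the neuronal ELAVL genes most of ELAVL3.

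**Figure D1:**
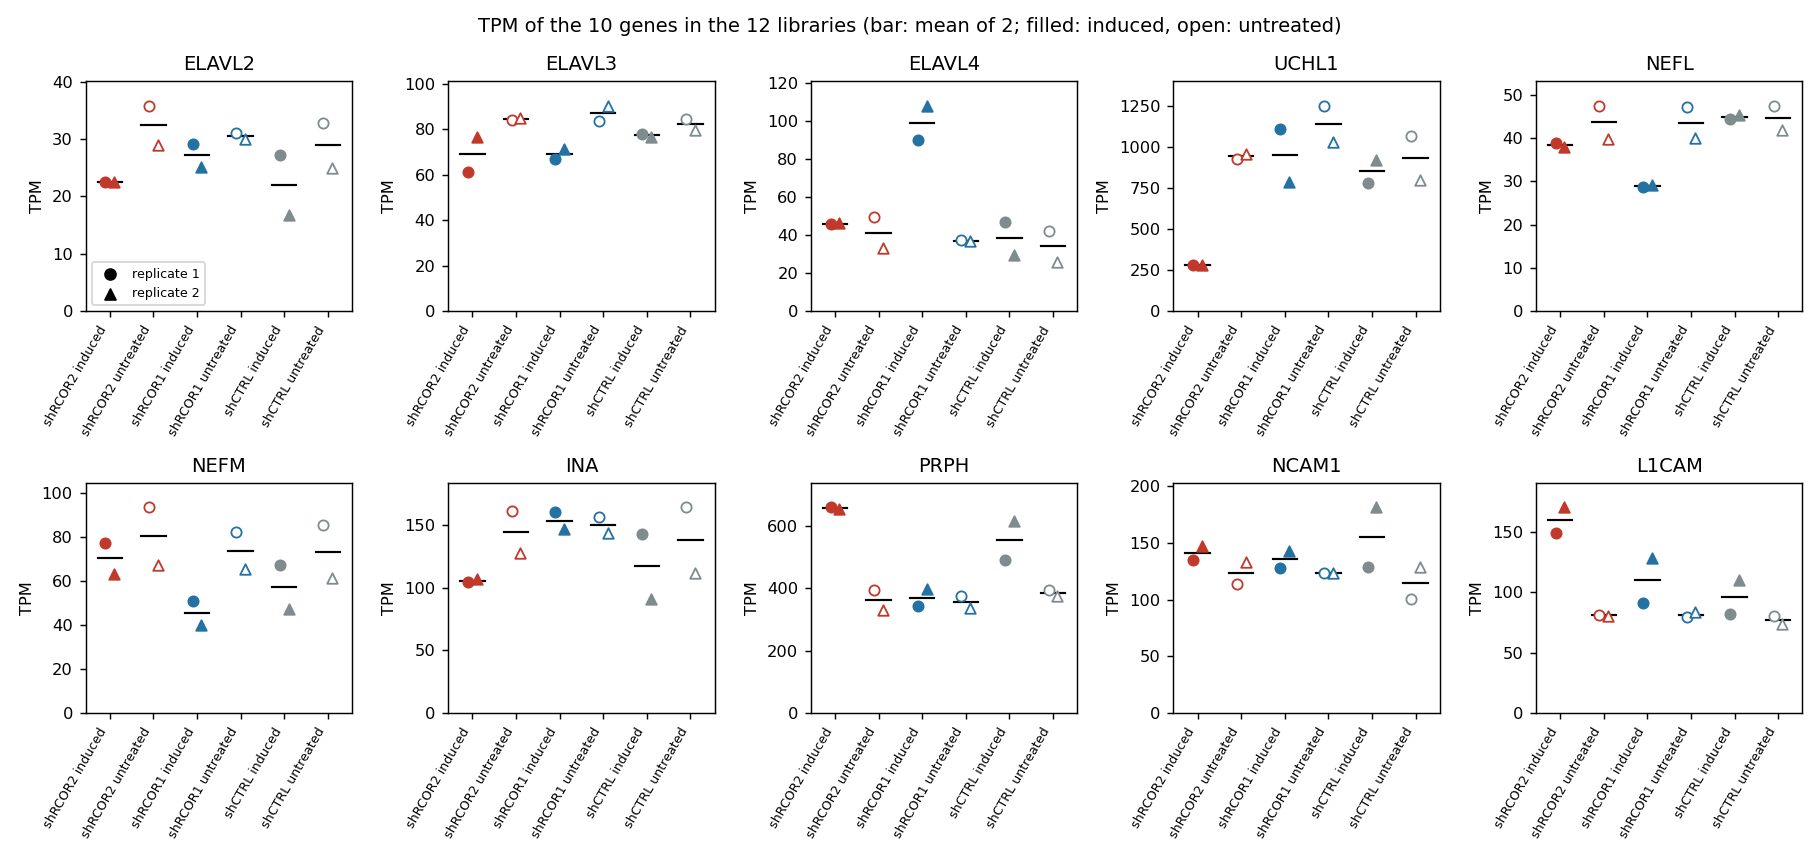
TPM of each of the 10 genes (one panel per gene, linear axes starting at 0) in the 6 groups, with each library as a point and the group mean as a line. UCHL1 is lowest in both shRCOR2 induced libraries (280 TPM each), and ELAVL4 is highest in both shRCOR1 induced libraries (90.1 and 108 TPM).

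UCHL1 fell with the RCOR2 hairpin. It stood at 280.3 and 280.2 TPM in shRCOR2 induced libraries, against 927 and 960 TPM in shRCOR2 untreated libraries. These were the lowest of the 12 libraries for this gene, and no other library was below 783 TPM. The log2 change was −1.75 ± 0.20 (SE, limma adjusted p = 0.0017), which puts the induced mean at 0.297 of the untreated mean. In the other lines UCHL1 had 1111 and 788 TPM in shRCOR1 induced against 1253 and 1032 TPM in shRCOR1 untreated, and 783 and 923 TPM in shCTRL induced against 1068 and 800 TPM in shCTRL untreated. Within each of these 2 lines the groups overlapped, and the changes of −0.28 ± 0.20 and −0.12 ± 0.20 (log2 ± SE) missed the threshold (limma adjusted p = 0.45 and 0.99).

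The fall was larger than in the other lines. The shRCOR2 change in UCHL1 minus the shCTRL change was −1.63 ± 0.28 (log2 ± SE, limma adjusted p = 0.029, and 0.0049 with the replicate block). Minus the shRCOR1 change it was −1.47 ± 0.28 (limma adjusted p = 0.014, and 0.0024 with the replicate block). The first of these calls was lost without any one of 7 of the 8 libraries, with adjusted p up to 0.13 by limma, and was kept without shCTRL induced replicate 1. It was also lost with no filter on low values (limma adjusted p = 0.057) and with median-of-ratios scaling (limma adjusted p = 0.061). The second was lost without shRCOR2 induced replicate 1, shRCOR2 induced replicate 2, shRCOR2 untreated replicate 2 or shRCOR1 untreated replicate 2, with limma adjusted p up to 0.056.

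PRPH, the filament protein of peripheral neurons, rose in the shRCOR2 line. It stood at 660 and 655 TPM in shRCOR2 induced libraries, against 394 and 331 TPM in shRCOR2 untreated libraries, a log2 change of 0.86 ± 0.14 (SE, limma adjusted p = 0.0068). In the shCTRL line it was 490 and 617 TPM induced, against 396 and 375 TPM untreated, so the induced libraries were higher there too without overlap (0.51 ± 0.14 log2 ± SE, limma adjusted p = 0.81). In the shRCOR1 line it was 343 and 396 TPM induced, against 376 and 337 TPM untreated, which overlap. The shRCOR2 change exceeded the shRCOR1 change by 0.81 ± 0.20 (log2 ± SE, limma adjusted p = 0.035, and 0.011 with the replicate block). The difference from the shCTRL change, 0.35 ± 0.20, missed the threshold (limma adjusted p = 0.44, and 0.23 with the replicate block). The call within the shRCOR2 line was lost without shRCOR2 untreated replicate 2 or shRCOR2 induced replicate 1 (limma adjusted p = 0.060 and 0.056), and that between the lines without any one of its 8 libraries (limma adjusted p = 0.051 to 0.13), with no filter (0.071) and with median-of-ratios scaling (0.068).

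L1CAM, which guides axon growth and bundling, rose in the same line. It stood at 149 and 170 TPM in shRCOR2 induced libraries, against 81.4 and 80.2 TPM in shRCOR2 untreated libraries (log2 change 0.97 ± 0.18 SE, limma adjusted p = 0.012). Both induced values were above those of every other library. L1CAM had 90.7 and 129 TPM in shRCOR1 induced against 79.2 and 83.6 TPM in shRCOR1 untreated, and 81.6 and 110 TPM in shCTRL induced against 79.9 and 73.6 TPM in shCTRL untreated. Induced libraries were therefore higher than untreated ones without overlap in all 3 lines. The difference of the shRCOR2 change from the shCTRL change, 0.67 ± 0.26 (log2 ± SE), missed the threshold (limma adjusted p = 0.23, and 0.059 with the replicate block). Without any one of the 4 shRCOR2 libraries the call within the line was lost (limma adjusted p = 0.056 to 0.086).

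The shRCOR2 count was thus 3 of 10 called, with PRPH and L1CAM higher and UCHL1 lower, beside 14.3% of all genes called in that comparison (7.81% higher and 6.47% lower). These were 1316 higher and 1090 lower genes, 996 higher and 1232 lower with median-of-ratios scaling, and 1963 higher and 981 lower with FPKM in place of TPM. Over the 10 genes the median change was −0.18, against 0.07 over all genes tested. Groups that did not overlap were seen for 8 of the 10, beside 63.3% of all genes. Of the 8, NCAM1, L1CAM and PRPH (3) were higher, beside 37.6%, and ELAVL2, ELAVL3, UCHL1, NEFL and INA (5) lower, beside 25.7% of all genes. The replicate number paired the libraries across groups, and with it as a block the calls were 6 of 10, beside 36.2% of all genes.

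ELAVL4 rose with the RCOR1 hairpin. It stood at 90.1 and 108 TPM in shRCOR1 induced libraries, against 37.6 and 36.8 TPM in shRCOR1 untreated libraries. No other library was above 49.5 TPM. The log2 change was 1.38 ± 0.28 (SE, limma adjusted p = 0.021), a ratio of means of 2.66. ELAVL4 had 45.8 and 46.2 TPM in shRCOR2 induced against 49.5 and 33.1 TPM in shRCOR2 untreated, and 47.1 and 29.5 TPM in shCTRL induced against 42.4 and 25.8 TPM in shCTRL untreated, and both pairs overlapped. The shRCOR1 change exceeded the shCTRL change by 1.22 ± 0.40 (log2 ± SE), which missed the threshold (limma adjusted p = 0.21) and passed it with the replicate block (limma adjusted p = 0.048). The shRCOR2 change minus the shRCOR1 change was −1.20 ± 0.40 (limma adjusted p = 0.094, and 0.023 with the replicate block). The call within the shRCOR1 line was lost without any one of its 4 libraries (limma adjusted p = 0.066 to 0.14), with no filter on low values (0.053) and with median-of-ratios scaling (0.053).

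The other neuronal ELAVL genes were not called in any line without the replicate block. ELAVL3 stood at 66.9 and 71.0 TPM in shRCOR1 induced libraries, against 83.5 and 90.3 TPM in shRCOR1 untreated libraries (−0.33 ± 0.11 log2 ± SE, limma adjusted p = 0.11, and 0.033 with the replicate block). In the shRCOR2 line ELAVL3 was 61.2 and 76.6 TPM induced, against 83.9 and 84.7 TPM untreated (−0.30 ± 0.11, limma adjusted p = 0.12, and 0.038 with the replicate block). In the shCTRL line it was 77.7 and 76.7 TPM induced, against 84.5 and 79.6 TPM untreated. The induced libraries were below the untreated ones in all 3 lines, by a smaller step in shCTRL, and neither difference from the shCTRL change passed (−0.21 ± 0.16 for shRCOR2 and −0.24 ± 0.16 for shRCOR1, log2 ± SE).

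ELAVL2 stood at 22.5 TPM in both shRCOR2 induced libraries, against 35.8 and 28.9 TPM in shRCOR2 untreated libraries (−0.50 ± 0.22 log2 ± SE, limma adjusted p = 0.17, and 0.029 with the replicate block). It had 29.2 and 25.1 TPM in shRCOR1 induced against 30.99 and 29.98 TPM in shRCOR1 untreated, and 27.3 and 16.8 TPM in shCTRL induced against 32.8 and 24.9 TPM in shCTRL untreated. The lowest library of all for ELAVL2 was an shCTRL induced one, and the shRCOR2 change differed from the shCTRL change by −0.10 ± 0.31 (log2 ± SE). ELAVL1 (HuR), the relative made in most cell types, was read beside them and stood at 25.7 and 25.8 TPM in shRCOR2 induced libraries, against 36.7 and 40.1 TPM in shRCOR2 untreated libraries, a fall of 0.56 ± 0.10 on the log2 scale (limma adjusted p = 0.0091). ELAVL1 was 31.9 and 31.4 TPM in shCTRL induced libraries, against 35.2 and 35.9 TPM in shCTRL untreated libraries, also without overlap, and 40.8 and 42.4 TPM in shRCOR1 induced against 33.65 and 39.05 TPM in shRCOR1 untreated. The difference of its shRCOR2 change from the shCTRL change, −0.39 ± 0.14 (log2 ± SE), missed the threshold (limma adjusted p = 0.19, and 0.049 with the replicate block).

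The make-up of the neuronal ELAVL RNA differed between the shRCOR1 groups without overlap. ELAVL4 made up 48.4% and 53.0% of the summed ELAVL2, ELAVL3 and ELAVL4 TPM in shRCOR1 induced libraries, against 24.7% and 23.4% in shRCOR1 untreated libraries. ELAVL3 made up 35.9% and 34.8% in shRCOR1 induced libraries, against 54.9% and 57.5% in shRCOR1 untreated libraries. The order of ELAVL3 and ELAVL4 was thus reversed in both induced libraries. The summed TPM of the trio was 186 and 204 in shRCOR1 induced libraries, against 152 and 157 in shRCOR1 untreated libraries. ELAVL4's share was 35.3% and 31.8% in shRCOR2 induced against 29.2% and 22.6% in shRCOR2 untreated, and 31.0% and 24.0% in shCTRL induced against 26.6% and 19.8% in shCTRL untreated.

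**Figure D2:**
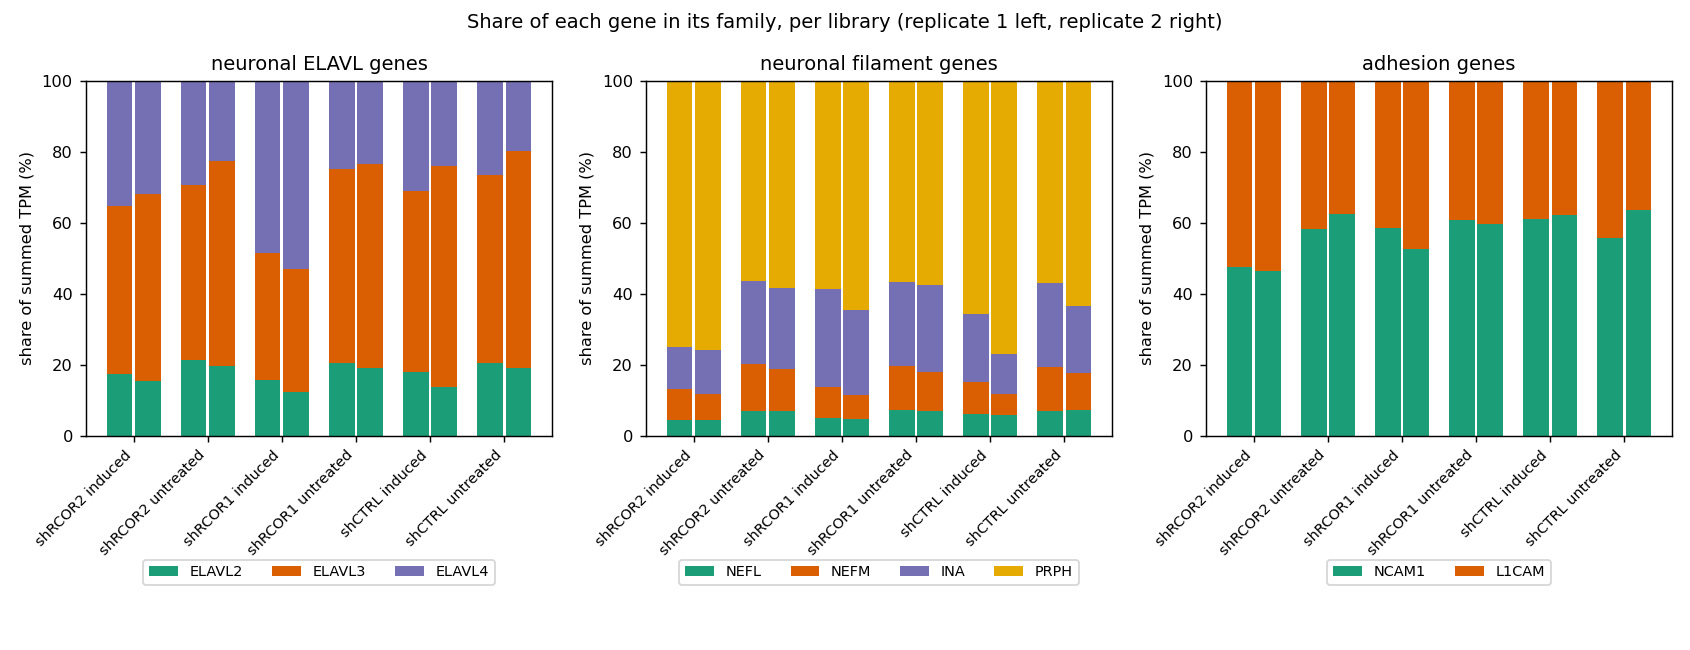
Share (percent of summed TPM, axis from 0) of each gene within the neuronal ELAVL genes, the 4 filament genes and the NCAM1 and L1CAM pair, one bar per library in the 6 groups. ELAVL4 holds 48.4% and 53.0% of its family in the shRCOR1 induced libraries, and PRPH holds 74.9% and 75.9% of the filament RNA in the shRCOR2 induced libraries.

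NEFL, the core neurofilament subunit, fell in the shRCOR1 line. It stood at 28.8 and 29.2 TPM in shRCOR1 induced libraries, against 47.3 and 39.9 TPM in shRCOR1 untreated libraries (log2 change −0.57 ± 0.12 SE, limma adjusted p = 0.024). The 2 induced libraries were the lowest of all 12. NEFL had 39.0 and 37.9 TPM in shRCOR2 induced against 47.5 and 39.8 TPM in shRCOR2 untreated, and 44.5 and 45.3 TPM in shCTRL induced against 47.5 and 41.9 TPM in shCTRL untreated. The shRCOR1 change minus the shCTRL change was −0.58 ± 0.17 (log2 ± SE, limma adjusted p = 0.17, and 0.030 with the replicate block). Without any one of the 4 shRCOR1 libraries the call within the line was lost (limma adjusted p = 0.055 to 0.17), and also with median-of-ratios scaling (0.068).

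NEFM, its neighbour on the chromosome and partner in the filament, stood at 50.9 and 40.1 TPM in shRCOR1 induced libraries, against 82.3 and 65.6 TPM in shRCOR1 untreated libraries. These do not overlap, and the log2 change of −0.69 ± 0.25 (SE) missed the threshold (limma adjusted p = 0.13) and passed it with the replicate block (limma adjusted p = 0.00058). NEFM had 77.4 and 63.4 TPM in shRCOR2 induced against 93.7 and 67.3 TPM in shRCOR2 untreated, and 67.6 and 47.5 TPM in shCTRL induced against 85.5 and 61.4 TPM in shCTRL untreated. The shRCOR1 change in NEFM minus its shCTRL change was −0.34 ± 0.35 (log2 ± SE, limma adjusted p = 0.79, and 0.084 with the replicate block), the shCTRL change itself being −0.35 ± 0.25. Replicate 1 was above replicate 2 in all 6 groups for NEFM, as for ELAVL2. For NCAM1 replicate 2 was above replicate 1 in all 6 groups. Of all genes tested, 43.7% went one way or the other in all 6 groups. The shRCOR2 change in NEFM minus its shRCOR1 change was 0.51 ± 0.35 (log2 ± SE, limma adjusted p = 0.42, and 0.0089 with the replicate block). The antisense gene AF106564.1, which overlaps NEFM, had 9.43 to 14.4 TPM, and reads of the pair could be shared, the strand setting of the quantification being one that the labels do not state.

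INA stood at 105 and 107 TPM in shRCOR2 induced libraries, against 161 and 128 TPM in shRCOR2 untreated libraries (log2 change −0.44 ± 0.23 SE, limma adjusted p = 0.25, and 0.0497 with the replicate block). It had 161 and 147 TPM in shRCOR1 induced against 156 and 143 TPM in shRCOR1 untreated, and 143 and 91.3 TPM in shCTRL induced against 164 and 112 TPM in shCTRL untreated. Within the shCTRL line the replicates were farther apart than the treatments. NT5C2, on the other strand over INA, had 23.4 to 41.3 TPM. PRPH made up 74.9% and 75.9% of the summed filament TPM (NEFL, NEFM, INA and PRPH) in shRCOR2 induced libraries, against 56.6% and 58.5% in shRCOR2 untreated libraries, while INA made up 11.9% and 12.4% in induced and 23.2% and 22.6% in untreated libraries. PRPH also made up 65.8% and 77.0% in shCTRL induced libraries, against 57.1% and 63.5% in shCTRL untreated libraries.

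NCAM1, which carries polysialic acid on growing nerve cells, was not called in any comparison. It stood at 135 and 147 TPM in shRCOR2 induced against 113 and 133 TPM in shRCOR2 untreated, 128 and 143 TPM in shRCOR1 induced against 123 and 124 TPM in shRCOR1 untreated, and 129 and 181 TPM in shCTRL induced against 101 and 129 TPM in shCTRL untreated. Its largest change was that in the shCTRL line (0.42 ± 0.18 log2 ± SE, limma adjusted p = 0.87). Of the summed NCAM1 and L1CAM TPM, L1CAM made up 52.5% and 53.6% in shRCOR2 induced libraries, against 41.8% and 37.6% in shRCOR2 untreated libraries. L1CAM was the more abundant of the pair in those 2 induced libraries and in no other.

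In the shRCOR1 line 2 of the 10 genes were called (ELAVL4 higher, NEFL lower), beside 8.62% of all genes (4.98% higher and 3.64% lower). With the replicate block 4 were called, ELAVL3 and NEFM being lower as well, beside 27.4% of all genes. The median change of the 10 was −0.07, against 0.04 over all genes tested. Groups that did not overlap were seen for 7, beside 53.1% of all genes, with 3 higher (beside 29.4%) and 4 lower (beside 23.7%). In the shCTRL line 0 of the 10 were called by limma, beside 0% of all genes, and 2 members (PRPH and NCAM1) and 938 genes had an unadjusted p below 0.05. With the replicate block the members called stayed at 0, beside 0.0594% of all genes. Groups that did not overlap were seen in shCTRL for 3 members, beside 23.5% of all genes, with PRPH and L1CAM higher (beside 7.99%) and ELAVL3 lower (beside 15.6%).

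**Figure D3:**
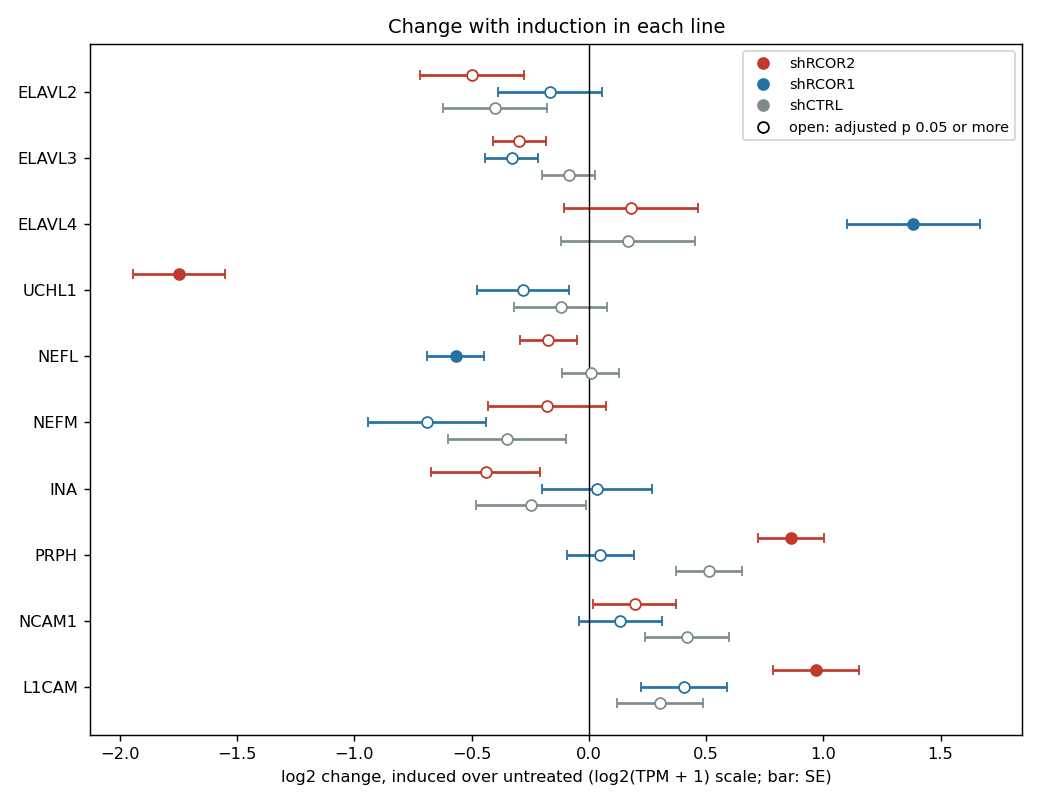
Log2 change of each gene, induced over untreated on the log2(TPM + 1) scale, in the shRCOR2, shRCOR1 and shCTRL lines, with bars of 1 SE and filled points where the limma adjusted p was below 0.05. Filled points are UCHL1 (−1.75), PRPH (0.86) and L1CAM (0.97) in shRCOR2 and ELAVL4 (1.38) and NEFL (−0.57) in shRCOR1.

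Relative to the shCTRL change, 1 of the 10 (UCHL1) was called for shRCOR2, beside 2.09% of all genes. For shRCOR1 0 were called by limma, beside 1.28% of all genes, with 3 members at an unadjusted p below 0.05 and 2 (ELAVL4 and NEFL) called with the replicate block, beside 10.2% of all genes. Between the shRCOR2 and shRCOR1 changes 2 were called (UCHL1 and PRPH), beside 11.2% of all genes, and 4 with the replicate block, beside 30.4% of all genes. The comparisons with shCTRL share its 4 libraries, so the shRCOR2 and shRCOR1 differences are not independent of each other.

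**Figure D4:**
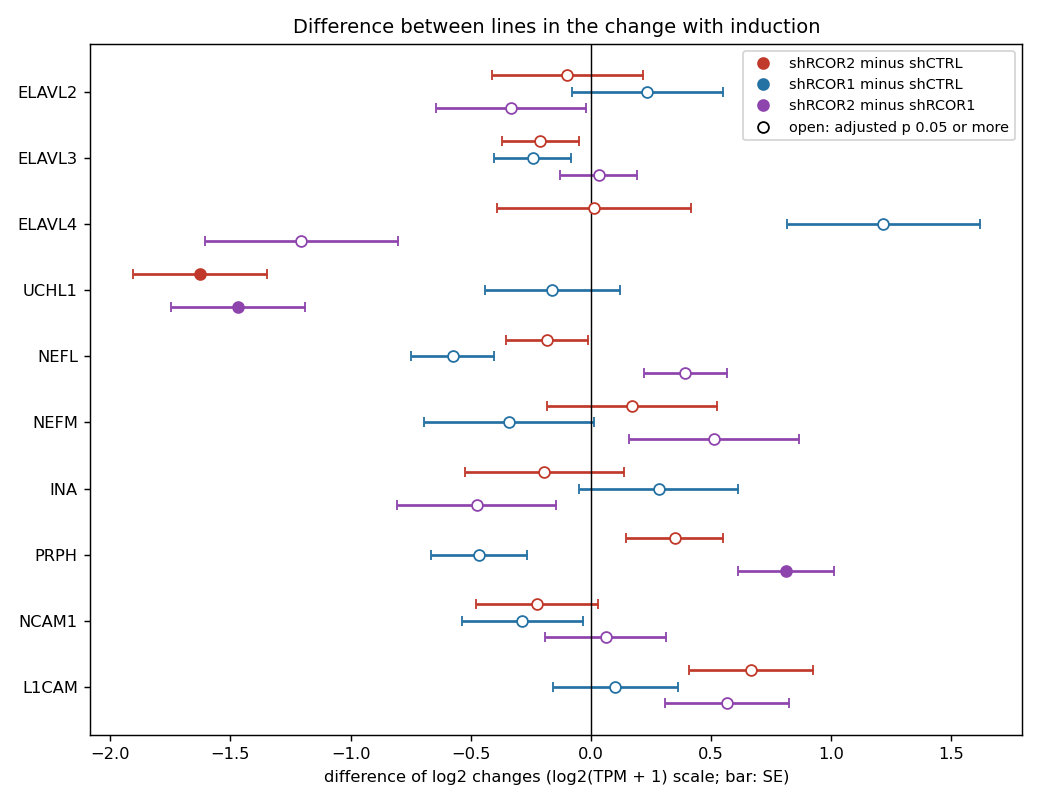
Difference of log2 changes for each gene, for shRCOR2 minus shCTRL, shRCOR1 minus shCTRL and shRCOR2 minus shRCOR1, with bars of 1 SE and filled points where the limma adjusted p was below 0.05. UCHL1 is filled in the comparisons of shRCOR2 with shCTRL (−1.63) and with shRCOR1 (−1.47), and PRPH (0.81) in that with shRCOR1.

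The untreated lines were close to each other. Of the 10 genes, 0 were called by limma between untreated shRCOR2 and untreated shCTRL or between untreated shRCOR1 and untreated shCTRL, beside 0% of all genes in both, and 0 members had an unadjusted p below 0.05. In all, 123 and 114 genes had one. The changes of the members ran from −0.11 to 0.30 (log2). Only L1CAM did not overlap between untreated shRCOR2 and untreated shCTRL, beside 15% of all genes, at 81.4 and 80.2 TPM against 79.9 and 73.6 TPM.

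Ordered by group mean, each gene had its own pattern. ELAVL4 was highest in shRCOR1 induced (99.1 TPM), apart from shRCOR2 induced next to it (46.0 TPM), and the remaining groups down to shCTRL untreated (34.1 TPM) overlapped with their neighbours. UCHL1 ran from shRCOR1 untreated (1142 TPM) down to shCTRL induced (853 TPM) with each neighbour overlapping, and shRCOR2 induced (280 TPM) stood apart below. PRPH ran from shRCOR2 induced (657 TPM) through shCTRL induced (554 TPM) to shCTRL untreated (385 TPM), each step without overlap, and the last 4 groups down to shRCOR1 untreated (357 TPM) overlapped. L1CAM was highest in shRCOR2 induced (159 TPM), apart from shRCOR1 induced (110 TPM). At the other end shCTRL untreated (76.8 TPM) was apart from its neighbour shRCOR2 untreated but overlapped shRCOR1 untreated. NEFL had 4 overlapping groups between shCTRL induced (44.9 TPM) and shRCOR1 untreated (43.6 TPM), with shRCOR2 induced (38.4 TPM) and shRCOR1 induced (29.01 TPM) each apart below them. ELAVL3 ran from shRCOR1 untreated (86.9 TPM) to shRCOR2 induced (68.9 TPM), with the 3 untreated groups overlapping and above the induced ones. For NEFM and INA every neighbour overlapped, from shRCOR2 untreated (80.5 TPM) to shRCOR1 induced (45.5 TPM) for NEFM and from shRCOR1 induced (154 TPM) to shRCOR2 induced (106 TPM) for INA. For ELAVL2 the single step between neighbours was from shRCOR1 induced (27.1 TPM) to shRCOR2 induced (22.5 TPM). For NCAM1 it was from shRCOR1 induced (136 TPM) to shRCOR1 untreated (123 TPM). Neither step parted all groups above from all below. In ELAVL2 shCTRL induced overlapped shRCOR1 induced, and in NCAM1 shRCOR2 untreated overlapped shRCOR1 induced.

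The lists below are read against the shares of all genes called, which were 7.81% higher and 6.47% lower in shRCOR2 and 4.98% higher and 3.64% lower in shRCOR1. Among RNA-binding proteins, a list of neuronal ones and of others such as ELAVL1, 20 of 24 listed genes were tested. In the shRCOR2 line 1 rose and 7 fell (median −0.19, against 0.07 over all genes), and in the shRCOR1 line 2 rose and 0 fell (median 0.13, against 0.04 over all genes). With the replicate block these counts were 3 higher and 9 lower in shRCOR2 and 6 higher and 3 lower in shRCOR1. The 7 that fell in shRCOR2 without the block were ELAVL1, KHDRBS1, CELF2, MSI1, MSI2, IGF2BP1 and IGF2BP3. NOVA1, NOVA2, RBFOX1, CELF4, PTBP2 and SRRM4 were not called there. KHDRBS1 (Sam68, a splicing regulator) stood at 142 ± 1.32 TPM in shRCOR2 induced and 281 ± 13.4 TPM in shRCOR2 untreated libraries (SD, n = 2 each). MSI2 (Musashi-2, a translational regulator of progenitors) stood at 42.0 ± 5.73 TPM in shRCOR2 induced and 72.2 ± 0.895 TPM in shRCOR2 untreated libraries. CELF3, a brain splicing regulator, was the one that rose, at 65.6 ± 9.07 TPM in induced and 34.2 ± 4.08 TPM in untreated libraries. In the shRCOR1 line the 2 that rose were KHDRBS3 (65.0 ± 5.46 TPM induced, 24.5 ± 2.23 TPM untreated), a neuronal relative of KHDRBS1, and PTBP2 (35.9 ± 2.48 TPM induced, 20.2 ± 0.657 TPM untreated), the splicing repressor of young neurons. Against the shCTRL change, 0 of the 20 were called for shRCOR2 by limma (2 higher and 5 lower with the replicate block). For shRCOR1 KHDRBS3 alone was called without the block (1.22 ± 0.21 log2 ± SE, limma adjusted p = 0.033), and 5 were higher and 0 lower with it.

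Of 11 transcripts reported in the literature to be bound or regulated by neuronal ELAVL proteins, 10 were tested. In the shRCOR2 line 2 rose and 1 fell (median −0.35, against 0.07 over all genes), and in the shRCOR1 line 1 rose and 0 fell (median 0.05, against 0.04). Blocking on the replicate number gave 4 higher and 4 lower in shRCOR2 and 3 higher and 2 lower in shRCOR1. Relative to the shCTRL change the shRCOR2 median had the other sign (0.23, against 0.09 over all genes). MYCN stood at 1156 ± 161 TPM in shRCOR2 induced and 2848 ± 242 TPM in shRCOR2 untreated libraries (SD, n = 2 each; −1.31 ± 0.31 log2 ± SE, limma adjusted p = 0.027), and its difference from the shCTRL change, −1.06 ± 0.44, missed the threshold (limma adjusted p = 0.26). CDKN1A, a cell-cycle inhibitor, rose in both lines, by 1.66 ± 0.17 in shRCOR2 and by 0.96 ± 0.17 in shRCOR1 (log2 ± SE). Its shRCOR2 change exceeded the shCTRL change by 1.22 ± 0.24 (limma adjusted p = 0.044), the one call of this list relative to shCTRL without the block. With the block 2 were higher and 1 lower for shRCOR2, and 0 higher and 1 lower for shRCOR1. BDNF, a neurotrophin, stood at 9.27 ± 0.165 TPM in shRCOR2 induced and 5.91 ± 0.542 TPM in shRCOR2 untreated libraries (limma adjusted p = 0.049).

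Of 14 other intermediate filament and linker genes, 13 were tested, with 0 higher and 2 lower in shRCOR2 (median −0.32, against 0.07) and 2 higher and 0 lower in shRCOR1 (median 0.46, against 0.04). Blocking on the replicate number gave 1 higher and 4 lower in shRCOR2 and 7 higher and 1 lower in shRCOR1. Against the shCTRL change, 1 was lower for shRCOR2 (SYNM) and 2 were higher for shRCOR1 (NES and LMNA) without the block. With the block 1 was higher and 3 lower for shRCOR2, and 5 higher and 0 lower for shRCOR1. NES (nestin, the filament of neural progenitors) was on opposite sides in the 2 lines. It stood at 139 ± 4.92 TPM in shRCOR2 induced and 241 ± 10.4 TPM in shRCOR2 untreated libraries, and at 422 ± 4.99 TPM in shRCOR1 induced and 234 ± 12.4 TPM in shRCOR1 untreated libraries (SD, n = 2 each). The shRCOR2 change minus the shRCOR1 change was −1.64 ± 0.17 (log2 ± SE, limma adjusted p = 0.0019). LMNA, which encodes the nuclear lamins A and C, stood at 128 ± 4.28 TPM in shRCOR1 induced and 57.2 ± 3.08 TPM in shRCOR1 untreated libraries, and its change exceeded that in shCTRL by 1.33 ± 0.19 (limma adjusted p = 0.019). SYNM (synemin) fell in shRCOR2, by 1.22 ± 0.26 on the log2 scale (SE, limma adjusted p = 0.018).

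Of 28 immunoglobulin-family and related adhesion genes, 20 were tested, with 1 higher and 2 lower in each of the 2 knockdown lines (median 0.08 in both, against 0.07 and 0.04 over all genes). Blocking on the replicate number gave 2 higher and 3 lower in shRCOR2 and 5 higher and 4 lower in shRCOR1. Against the shCTRL change, 0 of the 20 were called by limma for either line (2 higher and 1 lower for shRCOR2 and 1 higher and 4 lower for shRCOR1 with the block). CNTNAP2, which helps to arrange ion channels along axons, fell in both lines, by 1.17 ± 0.22 in shRCOR2 and by 1.64 ± 0.22 in shRCOR1 (log2 ± SE), beside −0.39 ± 0.22 in shCTRL, and neither difference from shCTRL passed (limma adjusted p = 0.24 and 0.11). MCAM was on opposite sides, with −1.52 ± 0.27 in shRCOR2 and 1.26 ± 0.27 in shRCOR1 (log2 ± SE, limma adjusted p = 0.0096 and 0.026). NPTN rose in shRCOR2, with 61.7 ± 4.10 TPM in induced and 43.0 ± 1.90 TPM in untreated libraries. CADM1 fell in shRCOR1, with 16.0 ± 2.56 TPM in induced and 29.2 ± 2.88 TPM in untreated libraries (SD, n = 2 each).

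Of 15 partners and modifiers of NCAM1 and L1CAM, 14 were tested, with 1 higher and 3 lower in shRCOR2 (median −0.01, against 0.07) and 2 higher and 0 lower in shRCOR1 (median 0.24, against 0.04). With the replicate block the counts were 2 higher and 3 lower in shRCOR2 and 5 higher and 2 lower in shRCOR1. Relative to the shCTRL change, MSN alone was called for shRCOR2 by limma (1 higher and 3 lower with the block). For shRCOR1 0 were called (3 higher with the block). The 3 that fell in shRCOR2 were MSN, RDX and EZR, the moesin, radixin and ezrin proteins that tie membrane proteins such as L1CAM to actin. MSN stood at 54.4 ± 2.85 TPM in shRCOR2 induced and 133 ± 15.0 TPM in shRCOR2 untreated libraries (SD, n = 2 each), and its change differed from that in shCTRL by −0.99 ± 0.16 (log2 ± SE, limma adjusted p = 0.026). NRP1, a semaphorin co-receptor that binds L1CAM, rose in shRCOR2 to 70.4 ± 1.01 TPM in induced libraries, against 35.5 ± 8.92 TPM in untreated ones. In shRCOR1 the 2 that rose were FYN, a kinase downstream of NCAM1 (91.1 ± 2.36 TPM induced, 58.6 ± 0.136 TPM untreated), and EZR (137 ± 15.5 TPM induced, 94.9 ± 2.42 TPM untreated).

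All 10 listed ubiquitin and ubiquitin hydrolase genes beside UCHL1 were tested, with 1 higher and 3 lower in shRCOR2 (median 0.07, against 0.07) and 2 higher and 1 lower in shRCOR1 (median 0.10, against 0.04). With the replicate block the counts were 4 higher and 3 lower in shRCOR2 and 2 higher and 1 lower in shRCOR1. Relative to the shCTRL change, 0 were called for shRCOR2 by limma (1 higher with the block) and 1 was lower for shRCOR1 (3 higher and 1 lower with the block). UCHL5, a relative of UCHL1 on the proteasome, stood at 53.8 ± 1.74 TPM in shRCOR2 induced and 78.9 ± 4.49 TPM in shRCOR2 untreated libraries (SD, n = 2 each). UBB, a polyubiquitin gene, was lower in shRCOR2 (−0.60 ± 0.13) and higher in shRCOR1 (0.67 ± 0.13, log2 ± SE). In the shCTRL line 0 genes of any of the 6 lists were called by limma, with or without the replicate block.

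The genes most like each member were searched over the 12 libraries among 9405 genes with a mean of at least 10 TPM, by Pearson's r of log2(TPM + 1). These coefficients describe libraries that share groups, replicate numbers and the TPM scaling. UCHL1 was nearest to MZT1 (0.98), IPO5 (0.98) and RAD23B (0.97). ELAVL4 was nearest to PPP1R13B (0.97), MAP3K1 (0.96) and PPP2CB (0.96). PRPH was nearest to DDX50 (0.97), NBR1 (0.96) and PGLS (0.96), and L1CAM to SLC38A9 (0.97), MRPS31 (0.96) and ZNF226 (0.96). NEFL was nearest to WRNIP1, COLEC11 and PGM2, NEFM to CCDC34, TIMELESS and SSNA1, INA to SF3B4, TFB2M and CYB561, NCAM1 to METTL22, LETMD1 and ABRAXAS1, ELAVL2 to FJX1, NAT10 and NUP62, and ELAVL3 to RPL7L1, RAP2C and SOBP. No member was among the 3 nearest genes of another.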

How the data were processed

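Directional libraries were made from total RNA of 12 samples, per the labels' protocols. Trim Galore 0.6.7, HISAT2 2.2.1 and StringTie 2.1.7 with GRCh38 (hg38) are listed in the submitters' processing notes. The annotation release, strand setting and multimapping rule were not given in the sources used here. The deposited TPM were scaled by the authors to one total per library, so they measure shares of RNA. The deposited FPKM served as an alternative and the deposited coverage signal for relative depth. Read totals are not in the files, so no counting intervals are given.

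Rows were summed per gene identifier. The genes that reached 1 TPM in 2 or more libraries were fitted as log2(TPM + 1), which understates changes of low genes, with 6 group means and a mean-variance trend in limma 3.58.1 (R 4.3.3). In 8 comparisons, a call is a Benjamini-Hochberg adjusted p below 0.05 over 16842 genes. Python 3.11.15 was used for the rest. The fit was also run on simulated data drawn without a replicate effect, so that run does not cover the pairing described next. Deviations of replicates correlated at 0.37 to 0.75 in all 15 group pairs, and the first principal component (31.9%) separated the replicate numbers, so these pair the samples; a block on them was an alternative. Other alternatives were a pseudocount of 0.1, no filter, FPKM, median-of-ratios scaling, no mitochondrial genes and leaving out each library. The members, lists and rules were chosen with earlier results of these data known. In lists, up to 4 called genes with the largest changes could be named.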

Additional observations from a re-analysis of the deposited data

Results flagged for a closer look

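UCHL1 changed differently between the lines. Its shRCOR2 change (−1.75) minus its shCTRL change (−0.12) was −1.63 ± 0.28 (log2 ± SE, limma adjusted p = 0.029), and minus its shRCOR1 change (−0.28) it was −1.47 ± 0.28 (limma adjusted p = 0.014). Both induced shRCOR2 libraries were lower than every other library.

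PRPH changed differently between the shRCOR2 line (0.86) and the shRCOR1 line (0.05), by 0.81 ± 0.20 (log2 ± SE, limma adjusted p = 0.035). Groups of 2 libraries are too small for a check on single outlying samples.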

How the results depend on the processing

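The fall of UCHL1 in shRCOR2 kept its call under every alternative run, with −1.77 to −1.72 (log2) when a library was left out. The number of the 10 genes called in shRCOR2 was 3, became 6 with the replicate block and ran from 1 to 2 without one library. In shRCOR1 it was 2, became 1 with no filter, 0 with median-of-ratios scaling and 4 with the block, and was 0 without any one library. For the shRCOR2 minus shCTRL difference it was 1, became 0 with no filter and 0 with median-of-ratios scaling, and ran from 0 to 1 without one library. For shRCOR1 minus shCTRL it was 0 and became 2 with the block. For shRCOR2 minus shRCOR1 it was 2, became 1 with no filter, 1 with median-of-ratios scaling and 4 with the block, and ran from 0 to 1 without one library. The block called 36.2%, 27.4%, 14.7%, 10.2% and 30.4% of all genes in these 5 comparisons, against 14.3%, 8.62%, 2.09%, 1.28% and 11.2% without it. Beside the members, ELAVL1 in shRCOR2 minus shCTRL, RCOR1 and RCOR2 in shRCOR1 minus shCTRL and RCOR2 in shRCOR2 minus shRCOR1 (limma adjusted p = 0.094, and 0.034 with the block) became called with it. The causes were not tested.

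Signs turned only in changes that were not called. With median-of-ratios scaling these were INA (−0.039) and PRPH (−0.026) in shRCOR1, ELAVL4 (−0.10) in shRCOR2 minus shCTRL and NEFL (0.0056) in untreated shRCOR1 against untreated shCTRL. Without mitochondrial genes these were INA in shRCOR1 (−0.0096), NEFL in shCTRL (−0.0081) and NEFM in untreated shRCOR1 against untreated shCTRL (−0.00066).

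Leaving out one library turned the sign within these ranges (log2). In shRCOR2: −0.10 to 0.46 for ELAVL4, −0.41 to 0.058 for NEFM. In shRCOR1: −0.030 to 0.10 for INA, −0.055 to 0.15 for PRPH. In shCTRL: −0.18 to 0.51 for ELAVL4, −0.33 to 0.087 for UCHL1, −0.080 to 0.098 for NEFL, −0.57 to 0.073 for INA. In shRCOR2 minus shCTRL: −0.43 to 0.24 for ELAVL2, −0.34 to 0.36 for ELAVL4, −0.078 to 0.42 for NEFM, −0.51 to 0.13 for INA, −0.47 to 0.022 for NCAM1. In shRCOR1 minus shCTRL: −0.10 to 0.57 for ELAVL2, −0.41 to 0.088 for UCHL1, −0.038 to 0.60 for INA, −0.15 to 0.35 for L1CAM. In shRCOR2 minus shRCOR1: −0.13 to 0.19 for ELAVL3, −0.054 to 0.18 for NCAM1. In untreated shRCOR2 against untreated shCTRL: −0.027 to 0.36 for ELAVL2, −0.0025 to 0.082 for ELAVL3, −0.066 to 0.63 for ELAVL4, −0.18 to 0.24 for UCHL1, −0.16 to 0.089 for NEFL, −0.11 to 0.37 for NEFM, −0.19 to 0.36 for INA, −0.22 to 0.032 for PRPH, −0.072 to 0.28 for NCAM1. In untreated shRCOR1 against untreated shCTRL: −0.10 to 0.28 for ELAVL2, −0.19 to 0.51 for ELAVL4, −0.16 to 0.082 for NEFL, −0.22 to 0.26 for NEFM, −0.13 to 0.41 for INA, −0.066 to 0.29 for NCAM1.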
